A study of Mus musculus with 12 samples.

Results

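The transcription factors examined were 10 regulators of heart and muscle genes, namely Gata4, Gata6, Mef2a, Mef2c, Mef2d, Tbx2, Tbx3, Tbx20, Hand2 and Srf, taken by their exact gene symbols from the 54345 genes with deposited values. All 10 symbols were found. Of these, 7 genes had reads that could be compared between groups, while Tbx3, Tbx20 and Hand2 were at the limit of detection. In cells given doxorubicin, Gata4, Mef2d, Mef2c and Gata6 fell, and Mef2a, Srf and Tbx2 did not pass the test. With MgHCF added, Gata4, Mef2d, Gata6, Srf and Tbx2 were higher than with doxorubicin alone, with Tbx2 and Srf also above untreated cells. Mef2c was also higher than with doxorubicin alone. This call was lost without any 1 of the libraries of doxorubicin alone, without MgHCF replicate 1 or 2, and with quantile normalization. With dexrazoxane added, none of the 8 genes tested passed the test against doxorubicin alone, nor did any other of the 25044 genes tested.

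The cells were H9c2(2-1), a myoblast line labelled as wild type, which the study describes as rat cardiomyoblasts while the deposited genes are mouse genes on the GRCm38 (mm10) build. How reads of rat cells were assigned to mouse genes is not given in the sources used here, which bears on the order of genes by level and on genes with few or no reads, and the promoters shown are those of mouse. The 4 groups, each of 3 libraries made after 6 h, were untreated cells (Unt), cells with doxorubicin (DOX), cells with doxorubicin and dexrazoxane (D_DXZ), and cells with doxorubicin and magnesium hexacyanoferrate nanocatalysts (D_MgHCF). Doxorubicin is an anthracycline used against tumors and known for harm to the heart, and dexrazoxane is an iron-chelating drug given to protect the heart from it. The doses in the sequenced cells are not given in the sources used here, and nothing says that the 3 libraries of a group came from separate cultures, so that p-values measure only the spread between these libraries.

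As background, GATA factors are zinc finger proteins that bind DNA around the letters GATA, and GATA4 and GATA6 are needed for the heart to form. MEF2 proteins and SRF are MADS-box factors. MEF2 binds AT-rich sites in muscle genes together with myogenic or cardiac partners and is held in check by class IIa histone deacetylases, and SRF binds CArG boxes in genes of the contractile cytoskeleton and in immediate early genes, with myocardin-family proteins or ternary complex factors as partners. TBX20 and HAND2 take part in the growth of the heart chambers, while TBX2 and TBX3 are repressors known from the parts of the heart that do not form working chamber muscle.

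Each library held between 16626514 and 19365119 reads on genes. The D_MgHCF libraries had 23368 to 25456 genes above 0 FPKM, against 18530 to 20660 in the libraries of the other groups. How far this bears on genes of low level that were higher in D_MgHCF was not tested. The authors' FPKM are fragments per kilobase of gene, scaled between libraries by median ratio. Divided by the scaling that the totals alone would give, this scaling was between 0.647 and 0.892 in the DOX and D_DXZ libraries and between 1.26 and 1.43 in the Unt and D_MgHCF libraries. Mitochondrial genes took 1.19 to 1.41% of the reads of Unt, 2.73 to 3.27% of those of DOX and D_DXZ, and 1.76 to 3.16% of those of D_MgHCF. Replicate 3 of D_MgHCF stood apart from the other D_MgHCF libraries, with a chi-square of counts per degree of freedom of 151.9 against replicate 1 and 98.6 against replicate 2, compared with 34.7 between replicates 1 and 2 and at most 21.2 within the other groups. Where leaving it out changed a call or a value markedly, both values are given. In libraries of whole cultures such as these, fewer cells of a type and less RNA per cell cannot be told apart.

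The labelled cell type was checked against marker genes. Of 8 heart muscle markers, none reached a mean of 1 FPKM in any group, and Nkx2-5, an early heart factor, was listed at 0 in all Unt libraries and had at most 0.321 FPKM elsewhere. Of 7 skeletal myoblast markers, only Des, a muscle intermediate filament, reached a mean of 1 FPKM, in Unt, and Myod1 had at most 0.126 FPKM. Summed over the list, heart muscle markers had 0.0969 to 0.195 FPKM in Unt and 0.973 to 1.04 in DOX, while D_DXZ had 0.625 to 0.705 and D_MgHCF 0.720 to 0.964. Most of the sum in DOX was Tnnt2, with a mean of 0.133 FPKM in Unt and 0.903 in DOX. Each other heart muscle marker had a mean of at most 0.0353 FPKM in DOX. Of 4 smooth muscle markers only Acta2 was abundant, and 3 of 5 fibroblast markers, all of them collagens, reached a mean of 1 FPKM. Summed fibroblast markers had 60.9 to 66.6 FPKM in Unt and 140 to 177 in DOX, while D_DXZ had 108 to 152 and D_MgHCF 30.4 to 63.8. The summed endothelial markers were highest in D_MgHCF at 0.263 to 1.08 FPKM, and summed epithelial markers had 0.00912 to 0.0203 FPKM in Unt and 0.311 to 1.37 in D_MgHCF. Of 4 leukocyte markers only Cd68, a lysosomal protein, reached a mean of 1 FPKM, with 1.03 in Unt, 3.06 in DOX, 4.09 in D_DXZ and 3.26 in D_MgHCF, while the defining marker Ptprc had at most 0.0129 FPKM. Some cell type markers thus moved with the groups, and their part in the results below was not tested.

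Promoter sequences were available for 6 of the 10 genes, as 8 RefSeq promoters on GRCm38.p6 that each run from 250 bases before to 50 bases after the start of transcription. They were searched on both strands for the CArG box (the site of SRF), for the MEF2 site and for the GATA site AGATAA. Only the Srf promoter held a CArG box, only that of Mef2a held a MEF2 site, and only that of Hand2 held a GATA site. Among all 32851 promoters of the same length, 1.63% held a CArG box, 3.19% a MEF2 site and 11.2% a GATA site. The promoters of Srf (chr17:46556113-46556412, minus strand), Mef2a (chr7:67372809-67373108, minus strand) and Mef2d (chr3:88142122-88142421, plus strand) are shown 5′ to 3′. They belong to the gene of the 10 with the highest level in every group and to the MEF2 genes that were above Mef2c in every group. Capitals mark the CArG boxes of Srf, at positions −82 and −62 from the start, and the MEF2 site of Mef2a at position −2, and Mef2d held neither motif.
Srf: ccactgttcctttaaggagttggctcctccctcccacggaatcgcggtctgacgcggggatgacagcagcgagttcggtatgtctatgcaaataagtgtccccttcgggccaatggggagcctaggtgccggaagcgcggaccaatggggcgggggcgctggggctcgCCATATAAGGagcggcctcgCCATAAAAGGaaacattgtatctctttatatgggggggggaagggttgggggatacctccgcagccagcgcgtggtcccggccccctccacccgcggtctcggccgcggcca
Mef2a: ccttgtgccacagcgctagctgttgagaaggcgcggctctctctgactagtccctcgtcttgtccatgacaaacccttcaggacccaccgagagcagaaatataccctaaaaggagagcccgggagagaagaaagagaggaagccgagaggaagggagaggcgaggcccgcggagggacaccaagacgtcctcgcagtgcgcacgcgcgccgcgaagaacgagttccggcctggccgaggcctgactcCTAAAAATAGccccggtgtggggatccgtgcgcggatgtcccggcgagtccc
Mef2d: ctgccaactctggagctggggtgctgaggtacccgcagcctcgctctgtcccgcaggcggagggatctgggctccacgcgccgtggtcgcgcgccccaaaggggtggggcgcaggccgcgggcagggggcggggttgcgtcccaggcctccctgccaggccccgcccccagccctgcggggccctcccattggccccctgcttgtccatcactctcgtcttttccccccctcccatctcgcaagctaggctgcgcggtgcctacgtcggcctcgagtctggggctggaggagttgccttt
The GC content of these promoters was 63.3%, 62.3% and 72%, respectively. A match describes the letters in these windows and does not show binding in these cells.

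In untreated cells, Srf had the highest level at 19.1 ± 1.92 FPKM (mean ± SD, n = 3 here and for all group means). Mef2d at 11.4 ± 0.973 and Gata4 at 10.3 ± 0.584 came next and overlapped between libraries, and Mef2a followed at 3.98 ± 0.523. Mef2c at 0.933 ± 0.0201, Gata6 at 0.589 ± 0.149 and Tbx2 at 0.278 ± 0.0517 FPKM were low. The order changed with treatment. In DOX and D_DXZ, Mef2a overlapped with Mef2d, and in D_MgHCF, Gata4 overlapped with Mef2d and Tbx2 overlapped with Mef2a. Srf was the highest of the 10 genes in all 12 libraries.

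**Figure D1:**
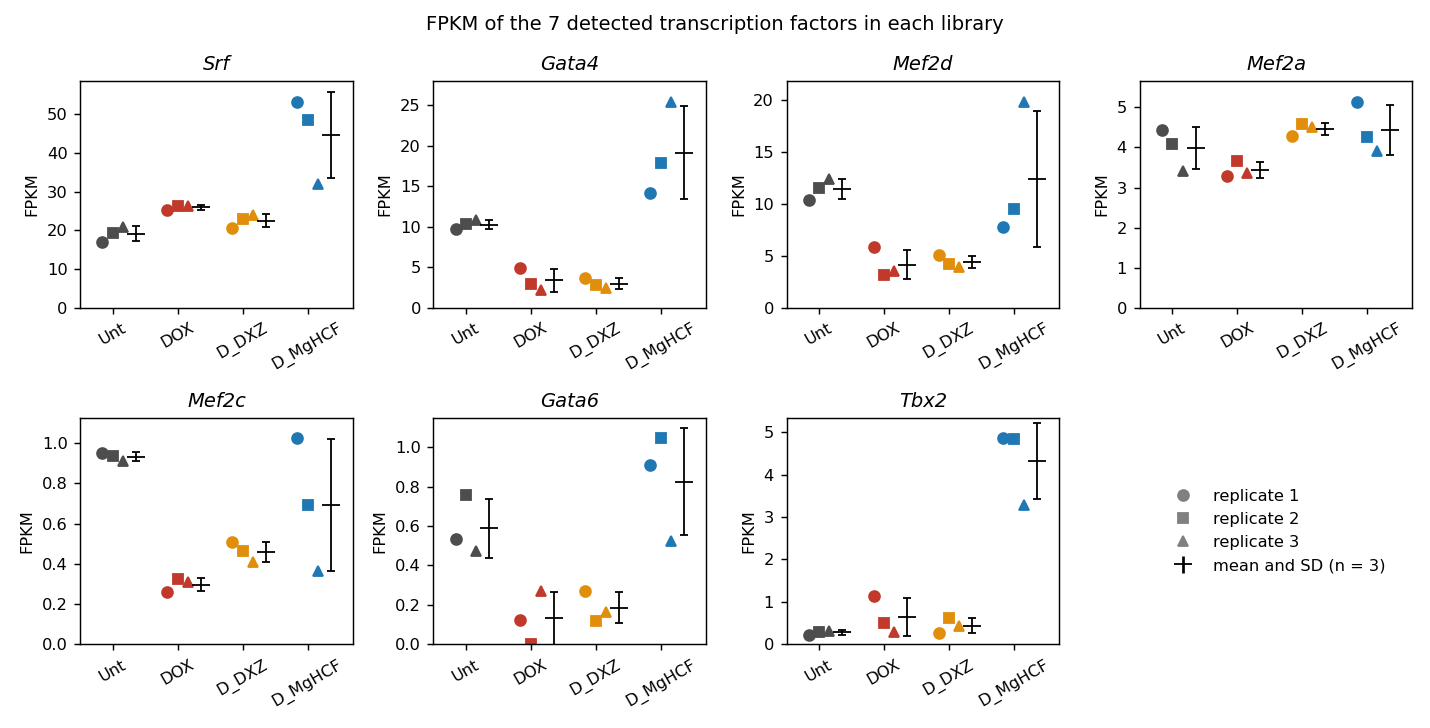
FPKM (y axis) of the 7 detected transcription factors in each library, by group (x axis), with markers for replicates 1 to 3 and crosses for the mean ± SD (n = 3). Gata4 lay at 9.66 to 10.8 FPKM in Unt, 2.17 to 4.93 in DOX and 14.2 to 25.5 in D_MgHCF, and Tbx2 lay at 3.29 to 4.86 FPKM in D_MgHCF and at or below 1.14 elsewhere.

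The test for the effect of doxorubicin was a limma fit of log2(FPKM + 1) over all 12 libraries, in which a gene was called at a Benjamini-Hochberg adjusted p under 0.05 over 25044 genes. The filter (FPKM above 0 in at least 3 libraries) was passed by 8 of the 10 genes. In DOX against Unt, 4 of these 8 were called, all lower, where 38.4% of all genes tested were called, 18.6% higher and 19.9% lower. In D_DXZ against Unt, the same 4 were called lower, where 33.9% of all genes were called, 15.9% higher and 18.0% lower. In D_MgHCF against Unt, 3 were called, all higher, where 40.1% of all genes were called, 24.3% higher and 15.7% lower. In D_MgHCF against DOX, 6 were called, all higher, where 51.5% of all genes were called, 31.4% higher and 20.1% lower. The comparisons against Unt share the Unt libraries, and those against DOX share the DOX libraries. Shares of all genes, here and below, also count genes of low level. A stricter filter, at 1 FPKM in place of 0, kept 12434 genes. Of these, 37.1% were called higher and 36.0% lower in DOX against Unt, and 35.9% and 39.2% in D_MgHCF against DOX. In D_MgHCF against Unt they were 24.6% and 29.9%. With 8 genes tested, the counts are a description beside these shares, and no result about the 10 genes as a group is read from them.

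GATA4 is the zinc finger factor that works with several other cardiac factors on heart genes. Gata4 (ENSMUSG00000021944, chr14:63198922-63271692, minus strand) had 9.66, 10.3 and 10.8 FPKM in Unt replicates 1, 2 and 3. It had 4.93, 2.95 and 2.17 FPKM in DOX. It had 3.66, 2.78 and 2.36 FPKM in D_DXZ. The DOX and D_DXZ libraries were all below the Unt libraries and overlapped with each other. In D_MgHCF, Gata4 had 14.2, 17.9 and 25.5 FPKM, so that all 3 libraries were above every other library. Gata4 fell by 1.42 on the log2(FPKM + 1) scale in DOX against Unt (SE 0.25, adjusted p = 0.000909, limma), which was a 3.06-fold lower mean FPKM, and by 1.53 in D_DXZ against Unt (adjusted p = 0.000813, limma). It was higher in D_MgHCF than in DOX by 2.22 on this scale (SE 0.25, adjusted p = 4.63e-05, limma), with a mean FPKM 5.72-fold as high. Against Unt, D_MgHCF was higher by 0.80 (adjusted p = 0.027, limma), but this call did not hold without replicate 3 of D_MgHCF, where the difference was 0.59 with an adjusted p of 0.0673, and it was also lost without D_MgHCF replicate 2 or without any 1 of the 3 Unt libraries. Between D_DXZ and DOX the difference was −0.11, with a 95% interval of −0.66 to 0.44.

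GATA6 is the related factor of heart and endoderm. Gata6 (ENSMUSG00000005836, chr18:11052510-11085635, plus strand) was low, with 37 to 58 reads per Unt library and 41 to 85 per D_MgHCF library, against 0 to 10 per DOX library and 5 to 14 per D_DXZ library. In FPKM these were 0.535, 0.758 and 0.474 in Unt, and 0.124, 0 and 0.271 in DOX. They were 0.271, 0.119 and 0.164 in D_DXZ, and 0.909, 1.045 and 0.523 in D_MgHCF. The DOX and D_DXZ libraries were all below the Unt and D_MgHCF libraries, while Unt and D_MgHCF overlapped. Gata6 fell by 0.49 on the log2(FPKM + 1) scale in DOX against Unt (adjusted p = 0.0108, limma) and by 0.42 in D_DXZ against Unt (adjusted p = 0.0276), and it was higher by 0.69 in D_MgHCF than in DOX (adjusted p = 0.00131). At such levels the added 1 makes a fold change smaller than that of the reads. Without DOX replicate 2, the library with 0 reads, the adjusted p of the first of these was 0.0516. The call in D_DXZ against Unt was lost without any 1 of 4 libraries (Unt replicates 1 and 2, D_DXZ replicates 2 and 3). D_MgHCF against Unt was at 0.19 and not called (adjusted p = 0.26, limma). Without D_MgHCF replicate 3 it was called at 0.32 (adjusted p = 0.0421, limma).

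MEF2D is a MEF2 protein of broad expression, and its transcript was the highest of the 3 in Unt. Mef2d (ENSMUSG00000001419, chr3:88142372-88172086, plus strand), whose promoter is shown above, had 10.4, 11.5 and 12.3 FPKM in Unt. It had 5.78, 3.15 and 3.48 FPKM in DOX, and 5.04, 4.17 and 3.94 FPKM in D_DXZ. Both groups were below Unt without overlap. In D_MgHCF it had 7.77, 9.45 and 19.8 FPKM, so that replicates 1 and 2 were below all Unt libraries and replicate 3 was above them, and all 3 were above all DOX libraries. Mef2d fell by 1.30 on the log2(FPKM + 1) scale in DOX against Unt (SE 0.29, adjusted p = 0.00431, limma) and by 1.21 in D_DXZ against Unt (adjusted p = 0.00805). It was higher by 1.31 in D_MgHCF than in DOX (adjusted p = 0.00375), and by 0.93 without D_MgHCF replicate 3, where the call held. Against Unt the difference in D_MgHCF was 0.00, with a 95% interval of −0.65 to 0.65, and this value rests on replicate 3, since it was −0.37 without that library (not called).

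Mef2a (ENSMUSG00000030557, chr7:67231163-67372858, minus strand), another broadly expressed MEF2 gene, had its lowest and highest library at 3.28 and 5.15 FPKM, closer together as a ratio than those of the other 6 detected genes. It had 4.43, 4.10 and 3.41 FPKM in Unt, and 3.28, 3.66 and 3.35 FPKM in DOX. It had 4.29, 4.58 and 4.51 FPKM in D_DXZ, and 5.15, 4.26 and 3.92 FPKM in D_MgHCF. Unt and DOX overlapped, and all D_DXZ and D_MgHCF libraries were above all DOX libraries. No comparison of Mef2a was called with the deposited scaling and all 12 libraries. D_MgHCF against DOX was at 0.29 on the log2(FPKM + 1) scale (adjusted p = 0.0587, limma), and without D_MgHCF replicate 3 it was called at 0.36 (adjusted p = 0.0203). D_DXZ against DOX was at 0.30, with a 95% interval of 0.04 to 0.56 and an adjusted p of 0.473 (limma). Its exons share sequence of at least 95% identity over at least 150 bases with transcripts of 42 other genes. The opposite-strand gene Lysmd4 overlaps it, with 2.01 FPKM in Unt, 0.326 in DOX, 0.592 in D_DXZ and 2.68 in D_MgHCF. The library kit as described does not mark strand, so reads in the overlap cannot be told apart. The same limit applies to Mef2d, which shares 531 bases at 100% identity with the overlapping opposite-strand gene 1700113A16Rik. That gene had 0.585 FPKM in Unt, 0.247 in DOX, 0.306 in D_DXZ and 0.300 in D_MgHCF.

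MEF2C is the member needed for the early heart tube. Mef2c (ENSMUSG00000005583, chr13:83504034-83667080, plus strand) had 0.951, 0.937 and 0.911 FPKM in Unt, and 0.260, 0.322 and 0.308 FPKM in DOX. It had 0.508, 0.461 and 0.410 FPKM in D_DXZ, and 1.02, 0.690 and 0.366 FPKM in D_MgHCF. The Unt, DOX and D_DXZ groups did not overlap with one another, in the order Unt, D_DXZ, DOX, while D_MgHCF ran from 0.366 in replicate 3, between the DOX and D_DXZ libraries, to 1.02 in replicate 1, above Unt. Mef2c fell by 0.58 on the log2(FPKM + 1) scale in DOX against Unt (SE 0.13, adjusted p = 0.00381, limma), a mean FPKM 3.14-fold lower, and by 0.41 in D_DXZ against Unt (adjusted p = 0.0296). The latter call was lost without any 1 of the 6 libraries compared. D_MgHCF was higher than DOX by 0.37 (adjusted p = 0.0329), and this was lost without D_MgHCF replicate 1 or 2 or any 1 of the DOX libraries, the value without D_MgHCF replicate 1 being 0.23. Without D_MgHCF replicate 3 the difference was 0.51. Between D_DXZ and DOX the difference was 0.17, with a 95% interval of −0.11 to 0.45, and it was not called although the libraries did not overlap.

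The 3 MEF2 genes together had 16.3 ± 0.481 FPKM in Unt, 7.86 ± 1.26 in DOX, 9.30 ± 0.491 in D_DXZ and 17.5 ± 5.74 in D_MgHCF. This sum leaves out Mef2b, a MEF2 gene outside the 10, so the shares below are not shares of all MEF2 transcripts. Mef2b had 1.89 ± 0.308 FPKM in Unt, 0.641 ± 0.0778 in DOX and 5.35 ± 1.60 in D_MgHCF. As a share of the sum of the 3 genes, which does not change with the scaling of a library, Mef2d made up 69.8 ± 4.1% in Unt and 51.6 ± 9.24% in DOX. Its share was 47.0 ± 3.71% in D_DXZ and 67.9 ± 13.4% in D_MgHCF. The share of Mef2a moved the other way, from 24.5 ± 3.82% in Unt to 44.5 ± 8.30% in DOX, 48.1 ± 3.94% in D_DXZ and 27.6 ± 10.5% in D_MgHCF. Without replicate 3, the D_MgHCF libraries had a sum of 13.9 and 14.4 FPKM, a Mef2d share of 55.7 and 65.6% and a Mef2a share of 29.6 and 36.9%.

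**Figure D2:**
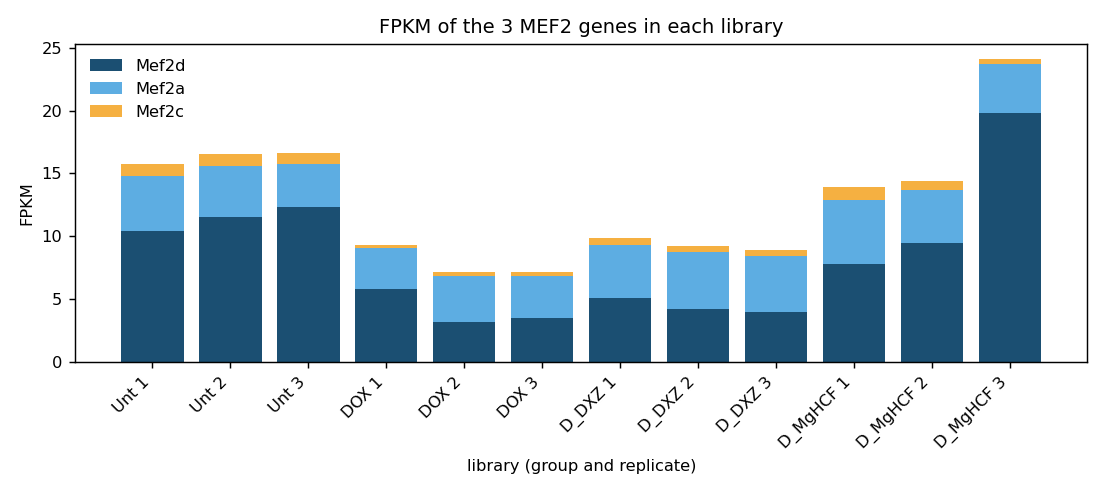
FPKM (y axis) of Mef2d, Mef2a and Mef2c stacked for each library (x axis, 3 libraries per group). The Mef2d segment was 10.4 to 12.3 FPKM in Unt and 3.15 to 5.78 in DOX, the Mef2a segment stayed between 3.28 and 5.15 in all libraries, and D_MgHCF replicate 3 had the tallest bar with 19.8 FPKM of Mef2d.

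SRF controls cytoskeletal and immediate early genes in nearly all cells and sarcomere genes in muscle. Srf (ENSMUSG00000015605, chr17:46546839-46556162, minus strand), whose promoter with 2 CArG boxes is shown above, had 17.1, 19.4 and 20.9 FPKM in Unt. It had 25.2, 26.3 and 26.4 FPKM in DOX, and 20.6, 23.0 and 23.9 FPKM in D_DXZ. All DOX libraries were above all Unt libraries, and D_DXZ overlapped with Unt. In D_MgHCF it had 53.3, 48.4 and 32.0 FPKM, so that all 3 libraries were above all others and replicate 3 was the lowest of them. Srf was higher in D_MgHCF than in Unt by 1.15 on the log2(FPKM + 1) scale (SE 0.16, adjusted p = 0.000447, limma), a mean FPKM 2.33-fold as high. It was higher than in DOX by 0.73 (adjusted p = 0.00369) and than in D_DXZ by 0.93 (adjusted p = 0.000925), and all 3 calls held with each library left out in turn. DOX against Unt was 0.43 (adjusted p = 0.0628) and was not called in the fit of 12 libraries, but it was called without D_MgHCF replicate 3 (adjusted p = 0.00235) or replicate 1 (adjusted p = 0.0368), and in a fit of these 2 groups alone (adjusted p = 0.00803). The sign of this difference depended on the scaling of the libraries. By reads, Srf had 1758 to 2089 in Unt and 1249 to 1565 in DOX, so that it was lower in DOX before the median-ratio scaling and higher after it.

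The SRF target list held 20 genes, of which 19 were tested. In DOX against Unt, 12 were called higher and 3 lower, with a median log2 difference of 0.92 against 0.00 for all genes tested, of which 18.6% were called higher and 19.9% lower. Among those higher, Tpm1, a tropomyosin of actin filaments, had 71.1 ± 7.25 FPKM in Unt and 464 ± 83.9 in DOX, and Acta2, smooth muscle actin, had 293 ± 30.3 in Unt and 1831 ± 304 in DOX. Among those lower were the immediate early genes Ier2, with 65.3 ± 4.53 FPKM in Unt and 5.63 ± 1.79 in DOX, and Junb, a subunit of AP-1, with 50.4 ± 1.43 and 7.48 ± 4.11. In D_MgHCF against DOX, 6 genes were called higher and 11 lower, with a median of −0.76 against 0.07 for all genes tested, of which 31.4% were called higher and 20.1% lower. Without D_MgHCF replicate 3 these counts were 7 and 11, beside 38.0% and 21.2% of all genes. Here Junb rose to 66.6 ± 11.6 FPKM and Fos, its AP-1 partner, was at 12.1 ± 6.48 against 1.05 ± 0.682 in DOX. Tpm1 fell to 64.2 ± 8.42 and Cnn2, a calponin of actin filaments, was at 42.9 ± 8.86 against 311 ± 37.9 in DOX. The 2 comparisons share the DOX libraries. Among genes kept by the stricter filter above, 37.1% were called higher and 36.0% lower in DOX against Unt. In D_MgHCF against DOX these shares were 35.9% and 39.2%. The list was not counted under that filter. With values scaled as TPM, the list had 9 genes higher and 5 lower in DOX against Unt (median 0.25) and 7 higher and 7 lower in D_MgHCF against DOX (median −0.18). With TPM, 4.39% of all genes were called higher and 40.1% lower in DOX against Unt, and 53.2% higher and 6.70% lower in D_MgHCF against DOX. In D_DXZ against DOX, 0 genes of the list were called by limma or by voom, and 3 had an unadjusted p under 0.05 (1 higher, 2 lower).

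**Figure D3:**
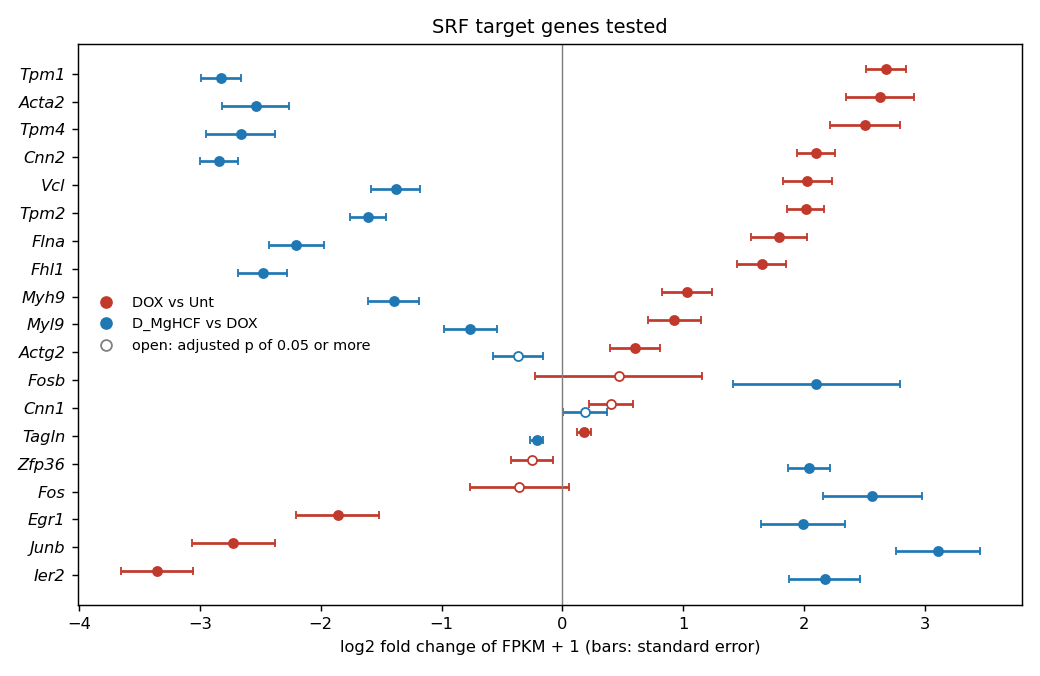
Log2 fold changes of FPKM + 1 (x axis, bars: standard error) of the 19 SRF target genes tested (y axis), in DOX against Unt (red) and D_MgHCF against DOX (blue), with open circles for an adjusted p of 0.05 or more. In DOX against Unt 12 genes, from Tpm1 to Tagln, were higher and Egr1, Junb and Ier2 lower, and the 2 comparisons share the DOX libraries.

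TBX2 is a repressor that keeps chamber muscle genes off in the valve-forming and conduction parts of the embryonic heart. Tbx2 (ENSMUSG00000000093, chr11:85832551-85841948, plus strand) had 0.219, 0.299 and 0.316 FPKM in Unt, and 1.14, 0.494 and 0.286 FPKM in DOX. It had 0.273, 0.610 and 0.434 FPKM in D_DXZ. These 3 groups overlapped. In D_MgHCF it had 4.86, 4.84 and 3.29 FPKM, from 293 to 447 reads per library against 12 to 63 in all others, so that all 3 libraries were above every other library. Tbx2 was higher in D_MgHCF than in Unt by 2.05 on the log2(FPKM + 1) scale (SE 0.20, adjusted p = 7.14e-05, limma), with a mean FPKM 15.6-fold as high. It was 6.75-fold as high as in DOX (log2 difference 1.72, adjusted p = 6.48e-05) and 9.86-fold as high as in D_DXZ (1.88, adjusted p = 4.68e-05). The calls held with each library left out in turn and under each scaling tried. DOX against Unt was 0.33 with an adjusted p of 0.267, the DOX values being spread by replicate 1.

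Tbx3, Tbx20 and Hand2 could not be compared between groups. Tbx3 (ENSMUSG00000018604, chr5:119670669-119684724, plus strand), a repressor of the conduction system, had 1 read in all, in D_MgHCF replicate 2. Tbx20 (ENSMUSG00000031965, chr9:24718138-24774303, minus strand) had 1 read in each of D_DXZ replicate 2 and D_MgHCF replicates 1 and 3, which let it pass the filter, and was not called in any comparison. Hand2 (ENSMUSG00000038193, chr8:57320983-57324633, plus strand), a basic helix-loop-helix factor of the right ventricle, had 3 reads in DOX replicate 1 and 1 read in D_DXZ replicate 3. In the libraries listed at 0, a count of 0 allows up to 3 reads, which correspond to 0.0180 to 0.0392 FPKM for Tbx3, 0.00982 to 0.0216 for Tbx20 and 0.0501 to 0.110 for Hand2, for counting error only.

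**Figure D4:**
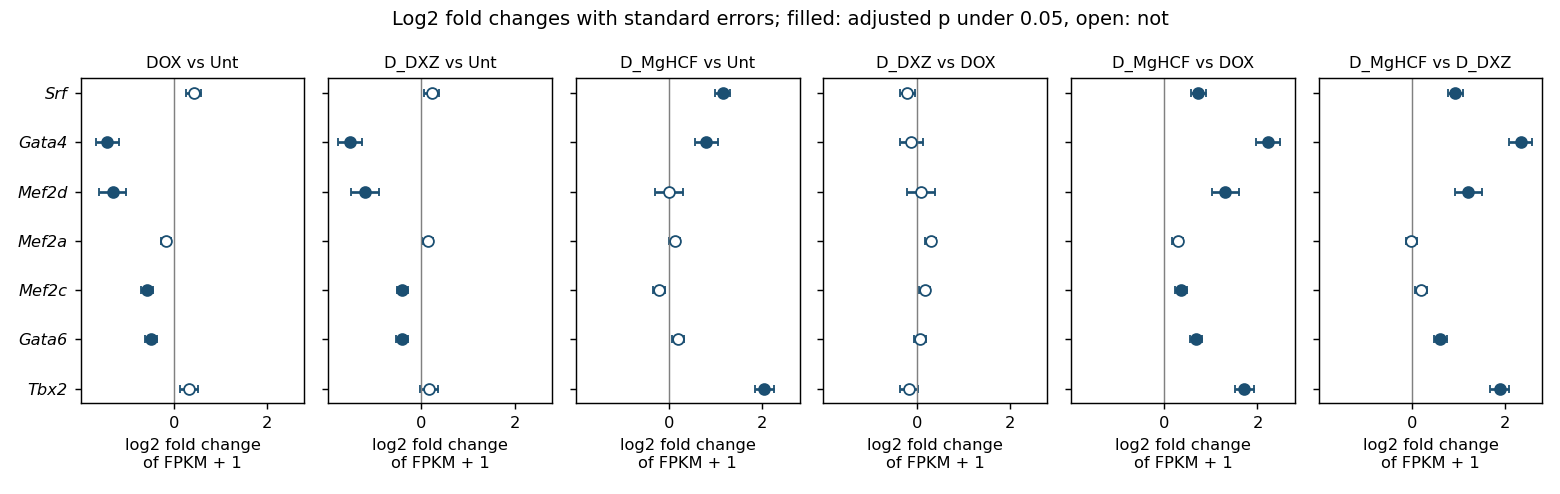
Log2 fold changes of FPKM + 1 (x axis, bars: standard error) of the 7 detected genes (y axis) in the 6 comparisons, with filled circles for an adjusted p under 0.05. Filled circles lie left of 0 for Gata4, Mef2d, Mef2c and Gata6 in DOX and D_DXZ against Unt, right of 0 for Srf, Gata4 and Tbx2 in D_MgHCF against Unt, and the panel of D_DXZ against DOX has none.

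Dexrazoxane and MgHCF were given with the same drug, and the question is how far each changed these genes from DOX. In D_DXZ against DOX, 0 of the 8 genes tested were called by limma, as were 0% of all genes, and at an unadjusted p under 0.05 only Mef2a passed, where 9.54% of all genes did. By voom on the reads 0 were called with either scaling. The 95% intervals of the differences on the log2(FPKM + 1) scale were −0.56 to 0.16 for Srf, −0.55 to 0.75 for Mef2d, −0.22 to 0.36 for Gata6 and −0.61 to 0.29 for Tbx2. Each of these intervals holds 0 and gives the differences compatible with these libraries. The interval of Mef2a, 0.04 to 0.56, did not hold 0, but its adjusted p was 0.473 (limma). In D_MgHCF against D_DXZ, 5 of 8 genes were called, all higher, where 48.4% of all genes were called, 29.4% higher and 19.0% lower. They were Gata4 at 2.33 (adjusted p = 4.4e-05), Tbx2 at 1.88, Mef2d at 1.21 (adjusted p = 0.00635), Srf at 0.93 and Gata6 at 0.61 (adjusted p = 0.0029, limma). Mef2c at 0.20 (adjusted p = 0.227) and Mef2a at −0.01 (adjusted p = 0.947) were not called. Without D_MgHCF replicate 3, Mef2c was called higher at 0.34 (adjusted p = 0.0103, limma).

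The scaling of the libraries moved all genes together. The median log2 difference of 11515 genes with a mean of at least 1 FPKM was 0.05 in DOX against Unt as deposited, 0.03 with quantile normalization, −1.03 with TPM and −0.89 with reads per library total (voom). In D_MgHCF against DOX it was −0.09, −0.06, 0.87 and 0.85 in the same order. Values relative to the median of all genes, here and below, use the median of these 11515 genes. Mef2c and Gata6 are not among these genes. The falls of Gata4, Mef2d, Mef2c and Gata6 in DOX against Unt and the rises of Gata4, Mef2d, Gata6, Srf and Tbx2 in D_MgHCF against DOX were called under all 4 scalings. Relative to the median of all genes with TPM, however, Mef2c was at −0.10 and Gata6 at 0.14 in DOX against Unt, where Gata4 was at −1.53 and Mef2d at −1.45. In D_MgHCF against DOX, Gata6 was at 0.19 relative to that median, Gata4 at 2.37, Tbx2 at 1.56, Mef2d at 1.47 and Srf at 1.03. The 1 added to the values makes these differences smaller for Mef2c and Gata6, whose levels are low. Mef2c in D_MgHCF against DOX was at 0.03 with quantile normalization (adjusted p = 0.831, limma), and Gata4 in D_MgHCF against Unt was at 0.68 with TPM (adjusted p = 0.109, limma). For Srf in DOX against Unt the difference was −0.88 with TPM and −0.51 with library totals, both called lower, and −0.09 with quantile normalization. Relative to the median of all genes, Srf was at 0.15 with TPM, 0.38 with library totals and −0.12 with quantile normalization. For Mef2a in DOX against Unt the values were −1.25 with TPM and −1.16 with library totals, both called lower, and 0.27 with quantile normalization, and relative to the median of all genes they were −0.22, −0.27 and 0.24.

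**Figure D5:**
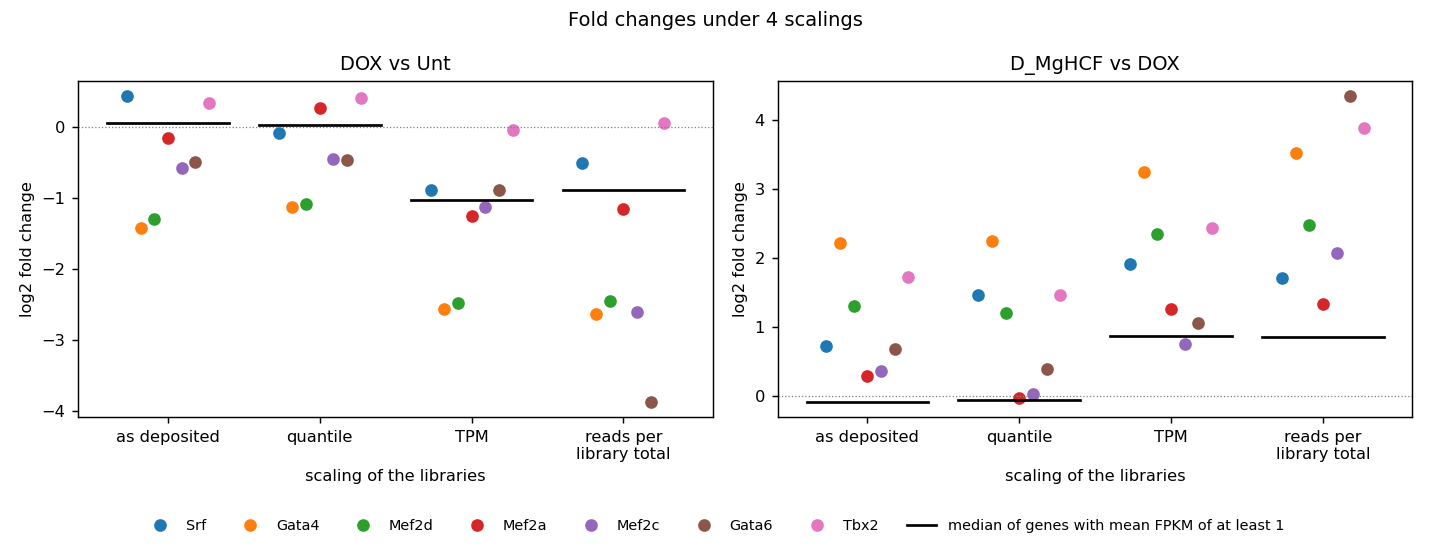
Log2 fold changes (y axis) of the 7 detected genes in DOX against Unt (left) and D_MgHCF against DOX (right) under 4 scalings (x axis), with black lines for the median of genes with a mean of at least 1 FPKM. The median was at 0.05, 0.03, −1.03 and −0.89 on the left, Gata4 and Mef2d lay below it under all 4 scalings, and Srf was above 0 as deposited and below 0 under the other 3. Values by library total come from voom on reads, without the added 1 FPKM, which spreads the genes of low level.

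Among 24 regulators that act with GATA, MEF2 and SRF, 23 were tested, and 2 were called higher and 9 lower in DOX against Unt, beside 18.6% and 19.9% of all genes. With TPM, 0 were higher and 18 lower, beside 4.39% and 40.1% of all genes. The acetyltransferases that serve as coactivators were among the lower genes, with Crebbp at 5.25 ± 0.102 FPKM in Unt and 0.649 ± 0.169 in DOX, and Ep300 at 9.78 ± 0.279 and 2.11 ± 0.581. The 2 higher genes were Hdac5, a class IIa deacetylase that represses MEF2, at 5.34 ± 0.330 and 10.2 ± 0.776, and Elk3, a ternary complex factor of SRF, at 10.5 ± 0.166 and 15.6 ± 1.33. With TPM, Hdac5 was at −0.38 (not called) and Elk3 at −0.73 (called lower), which relative to the median of all genes was 0.65 and 0.30, respectively. In D_MgHCF against DOX, 10 were called higher and 1 lower, beside 31.4% and 20.1% of all genes, or 11 and 4 without D_MgHCF replicate 3 and 19 and 0 with TPM. Of all genes, 38.0% and 21.2% were called without that library, and 53.2% and 6.70% with TPM. Zfpm1, a cofactor of GATA proteins, was at 16.7 ± 1.26 FPKM in D_MgHCF against 5.10 ± 1.12 in DOX, Nfatc1, a calcineurin-dependent factor, was at 3.74 ± 2.08 against 0.945 ± 0.550, and the lower gene was Elk3 at 5.93 ± 0.789. Elk3 was not called here with TPM (−0.17, or −1.04 relative to the median of all genes), nor Nfatc1 with quantile normalization (adjusted p = 0.0569, limma). The list medians were −0.45 and 0.39, respectively, against 0.00 and 0.07 for all genes tested.

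Of 21 other heart transcription factors, 16 were tested. In DOX against Unt, 0 were called higher and 5 lower (limma), with a median of −0.24, beside 18.6% and 19.9% of all genes. Without D_MgHCF replicate 3 in the fit 8 were called lower, and with TPM 10, beside 22.8% and 40.1% of all genes, respectively. Nr2f2, a nuclear receptor of atria and veins, was at 3.97 ± 0.144 FPKM in Unt and 1.05 ± 0.232 in DOX, and Meis1, a homeobox factor, at 2.47 ± 0.137 and 0.427 ± 0.0536. In D_MgHCF against DOX, 8 were called higher and 1 lower with a median of 0.30, beside 31.4% and 20.1% of all genes. The counts were 13 and 0 without D_MgHCF replicate 3, 16 and 0 with TPM, and 4 and 1 with quantile normalization. Of all genes, 38.0% and 21.2%, 53.2% and 6.70%, and 18.5% and 19.6% were called in the same order. Irx5, an Iroquois homeobox factor, was at 7.23 ± 3.06 FPKM against 0.932 ± 0.396 in DOX, and Foxc2, a forkhead factor, at 6.60 ± 2.26 against 1.75 ± 0.260.

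Of 15 skeletal muscle transcription factors and E proteins, 11 were tested, with 1 called higher and 5 lower in DOX against Unt and 5 higher and 3 lower in D_MgHCF against DOX. Of all genes, 18.6% and 19.9% were called in the former and 31.4% and 20.1% in the latter comparison. With TPM the counts were 0 and 8, and 7 and 1, and without D_MgHCF replicate 3 the latter were 6 and 3. With TPM, 4.39% and 40.1% of all genes were called in the former and 53.2% and 6.70% in the latter comparison. Without that library, 38.0% and 21.2% were called in the latter. Eya1, a transcriptional coactivator, was at 2.80 ± 0.135 FPKM in Unt and 0.606 ± 0.147 in DOX. Mef2b, the MEF2 gene outside the 10, was at 0.641 ± 0.0778 FPKM in DOX and 5.35 ± 1.60 in D_MgHCF. Lbx1, a homeobox factor of migrating muscle precursors, went the other way, with 2.74 ± 0.272 FPKM in Unt, 5.78 ± 0.457 in DOX and 1.83 ± 0.458 in D_MgHCF, although with TPM its difference between DOX and Unt was −0.23 and not called (0.80 relative to the median of all genes). Tcf3, an E protein, was at 40.9 ± 4.30 FPKM in DOX and 20.9 ± 7.35 in D_MgHCF, where the difference with TPM was 0.20 and not called (−0.67 relative to the median of all genes).

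The last list holds products of striated muscle, which these factors are known to control. Of 23 genes, 22 were tested, and 2 were called higher and 1 lower in DOX against Unt, with a median of 0.01, and 3 higher and 2 lower in D_MgHCF against DOX, with a median of 0.06. Of all genes, 38.4% and 51.5% were called in these comparisons. Without D_MgHCF replicate 3, 5 were higher and 2 lower in the latter comparison, and with TPM 9 and 0. Beside these stand 38.0% and 21.2% of all genes without that library, and 53.2% and 6.70% with TPM. In DOX against Unt, voom on the reads with the deposited scaling called 6 higher and 1 lower, beside 21.1% and 19.7% of all genes. Most were near the limit of detection, as the heart muscle markers above. Tnnc1, the troponin C of heart and slow muscle, was at 5.33 ± 0.326 FPKM in Unt, 12.5 ± 2.21 in DOX and 7.45 ± 1.36 in D_MgHCF. With TPM it was at −0.13 in DOX against Unt, which was not called, and at 0.43 in D_MgHCF against DOX, which was called higher, or at 0.90 and −0.45 relative to the median of all genes. Des was at 1.46 ± 0.105 FPKM in Unt and 0.552 ± 0.0999 in DOX and was not called with quantile normalization. In D_DXZ against DOX, 0 genes of these 4 lists were called by limma or by voom. At an unadjusted p under 0.05, 4 regulators were higher and 1 lower, 2 other heart factors were higher and 2 striated muscle products lower.

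Across the 12 libraries, the members fell into patterns that the lists above do not show, given here as Pearson's r of log2(FPKM + 1) over libraries that share treatments and scaling. Gata4 and Mef2d varied together at r = 0.925, and Srf and Tbx2, which both were highest in D_MgHCF, at r = 0.926. Mef2a followed none of them closely, with r from 0.052 with Mef2d to 0.481 with Mef2c. Among about 11516 genes with a mean of at least 1 FPKM, those most like Gata4 were Zxdc (r = 0.997) and Arel1 (r = 0.996), and those most like Mef2d were Ssbp3 (r = 0.992) and Ndel1 (r = 0.991). The genes most like Tbx2 were Grasp (r = 0.994) and Idnk (r = 0.993), most like Srf were Srebf1 (r = 0.987) and the pseudogene Gm5069 (r = 0.986), and most like Mef2c were Spry2 (r = 0.984) and Adamts5 (r = 0.983). For Gata6 they were Tpbg (r = 0.971) and Prr3 (r = 0.97), and for Mef2a Mfsd4a (r = 0.868) and Fam199x (r = 0.831). A likeness of at least 0.9 was common, being reached by 1060 genes for Gata4 and 918 for Mef2d but by 0 for Mef2a.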

How the data were processed

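The 12 libraries (4 groups of 3) were made from poly(A) RNA of H9c2(2-1) cells and read as pairs of 150 bases. The authors deposited FPKM values per gene and library, with mouse gene identifiers, lengths and GRCm38 coordinates. The submitters' processing notes name HISAT2 2.0.5, while the counting program, its strand setting and the annotation release are not given in the sources used here. FPKM multiplied by gene length was a whole multiple of 1 step per library for 100% of values (tolerance 0.05 reads), which gave the reads stated. The scaling in the deposited FPKM equalled a median-ratio factor of these reads.

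The test was limma 3.58.1 (R 4.3.3), fitted to log2(FPKM + 1) of all 12 libraries with a mean-dependent prior and no covariate. A gene was tested if at least 3 libraries had an FPKM above 0, which left 25044 genes, and p-values of the 6 comparisons were adjusted by Benjamini-Hochberg over all of them. The limma fit was tested on simulated data for DOX against Unt, with changes planted in genes with a mean of at least 1 FPKM. The other scalings, the gene lists and the promoter search were not tested in this way. The pseudocount of 1 makes fold changes of low genes smaller. The members and gene lists were chosen with earlier results of these data known, and support nothing beyond their values. All members are named, and from each list the up to 2 genes higher and 2 lower with the largest change among those called, where the higher group had a mean of 1 FPKM or more and the libraries did not overlap. The values of 1 gene that this rule names are not reported here. For likeness, the 2 genes with the highest r were named. Near-identical transcripts were searched with BLAST 2.17.0 among GENCODE transcripts, and promoters are from RefSeq. No per-sample column was left unused. Alternatives were other pseudocounts and filters, the unadjusted p, a replicate block, fits of 2 groups, other scalings and each library left out. Voom on recovered reads was chosen after seeing the data.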

Additional observations from a re-analysis of the deposited data

How the results depend on the processing

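Not every other setting could move a log2 difference. It stays the same with the unadjusted p, the filters, the replicate block and the fits of 2 groups. It also stays the same when the library left out is outside the comparison. Of 912 values of the members under other settings, 851 kept their side of the threshold (22 of them, none called, with the other sign), 33 lost a call, 20 gained a call and 8 turned direction with a call. The 8 were Srf in DOX against Unt (−0.88 with TPM, −0.51 with voom on library totals), Srf in D_DXZ against Unt (−0.92 and −0.53), Mef2a in D_DXZ against Unt (−0.84 and −0.59) and Mef2a in D_MgHCF against D_DXZ (0.85 and 0.77), in the same order, where these scalings also moved the median of all genes. The number of members called in D_DXZ against Unt was 4, and it was 2 with a pseudocount of 0.1, 2 with a filter at FPKM of at least 1 and 2 without a filter, and in D_DXZ against DOX it was 1 with the unadjusted p. The filter left Mef2c and Gata6 untested, and for the other settings the cause was not tested. With each library left out in turn, the number called was 3 to 5 in DOX against Unt, 2 to 4 in D_DXZ against Unt, 2 to 4 in D_MgHCF against Unt, 0 in D_DXZ against DOX, 5 to 7 in D_MgHCF against DOX and 5 to 6 in D_MgHCF against D_DXZ. With a replicate block the counts were 4, 3, 3, 0, 6 and 5 in this order of comparisons, the call lost being Gata6 in D_DXZ against Unt (adjusted p = 0.0501). Of 18 correlations of same-numbered libraries, 2 were over 0.1 (range −0.409 to 0.422). Both were between DOX and D_DXZ, at 0.422 for replicate 1 and 0.352 for replicate 3. Libraries with different numbers were not correlated for comparison, so whether the replicate numbers pair the libraries was not settled. Further calls gained or lost included Mef2c in D_MgHCF against Unt, called lower with TPM (−0.37) and quantile normalization (−0.42), and Gata6 in D_MgHCF against D_DXZ, not called with quantile normalization (adjusted p = 0.0732). Mef2c in D_MgHCF against D_DXZ was called higher with TPM (0.58) and with voom on library totals (1.25). The planned count models (edgeR with TMM and with library totals, DESeq2) were not run, because the deposited values are FPKM. Voom on the recovered reads was used in their place, and the count models were not tried on those reads. Depth limits Gata6, at most 85 reads per library, and the genes with 3 or fewer reads.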
